A study of Homo sapiens with 6 samples.

Results

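The enzymes of phase II conjugation were examined in Huh7-R cells after fostamatinib treatment: the UDP-glucuronosyltransferases (UGT), the cytosolic sulfotransferases (SULT) and the glutathione S-transferases (GST). Members were chosen by gene symbol, as genes named UGT1A, UGT2A, UGT2B, UGT3A, SULT1, SULT2, SULT4, GSTA, GSTK, GSTM, GSTO, GSTP, GSTT, GSTZ or MGST, with pseudogenes and antisense genes left out. Of the 16305 genes of the processed files, 29 were members: 8 UGT, 5 SULT and 16 GST genes. The GENCODE annotation lists 54 coding genes under these names, and the remaining 25 were not analysed here, among them every SULT2, SULT4 and UGT3A gene. Huh7-R cells (Huh7SR in the labels) are a pool of the human hepatocellular carcinoma line Huh7 that became resistant to sorafenib, a kinase inhibitor, during long exposure, and per the methods of the study sorafenib was withdrawn for some days before experiments. Poly(A) RNA was sequenced from 3 samples that received fostamatinib for 24 h and 3 that received the vehicle DMSO, and the labels write a dose of 2 uM for both groups. Fostamatinib is the prodrug of a kinase inhibitor. Treatments were made in triplicate, but nothing says that the triplicates were separate cultures, so p-values measure the spread between these samples, which may be technical.

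Conjugation makes lipophilic compounds soluble in water, so that transporters can export them into bile or urine. UGT enzymes of the endoplasmic reticulum attach glucuronic acid taken from UDP-glucuronate, cytosolic SULT enzymes attach sulfate from PAPS, and GST enzymes attach glutathione to electrophiles. Hepatocytes express most of these enzymes strongly, while GSTP1 is known for its low level in normal hepatocytes and its high level in many tumours.

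More members were higher than lower after fostamatinib. With limma and an adjusted p under 0.05 over all genes, 20 of the 29 members rose, 1 fell and 8 did not pass, while 23.3% of all genes rose and 24.5% fell (47.8% in either direction). At the stricter p threshold that allows 1 false positive in expectation, 12 members were higher and 0 lower. The share of all genes past that stricter threshold was not computed. The calls of GSTM1, GSTO1, GSTP1, GSTZ1, MGST3, SULT1A1, UGT1A6, UGT2B11 and UGT2B7 were lost there. At least a 2-fold rise was called for 7 members and a 2-fold fall for 0, against 3.85% and 3.29% of all genes (7.13% in either direction). These 7 were GSTA1, GSTA2, GSTA4, UGT2B15, UGT2B4, UGT2B11 and SULT1A1. The median log2 fold change of the members was 0.54, with a range of -0.10 to 4.03, while the median of all genes was 0.0015. The 3 fostamatinib samples lay above all 3 DMSO samples for 20 members, against 26.8% of all genes, and below them for 1, against 27.4%. The 20 include SULT1E1, which passed the filter on low reads only through the fostamatinib group. By class, 6 of 8 UGT genes rose and 0 fell (median 0.91), 2 of 5 SULT genes rose and 0 fell, and 12 of 16 GST genes rose and 1 fell (median 0.41). Without fostamatinib sample 2, 1 SULT gene was called. The SULT median of 0.66 is the value of SULT1A3, which was not called and ran from 0.16 to 1.03 when 1 sample was left out. In RNA from whole cultures, a change in the number of cells that express a gene cannot be told apart from a change in RNA per cell.

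**Figure D1:**
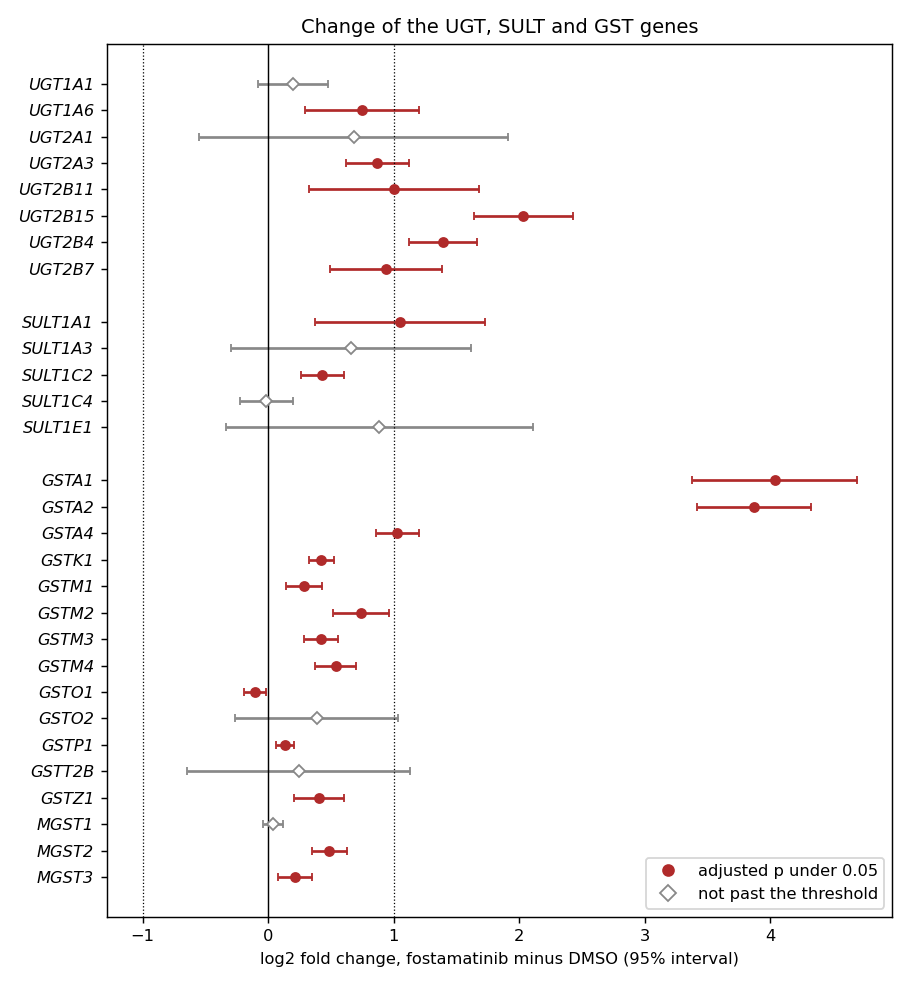
Log2 fold change (fostamatinib minus DMSO, x axis) of the 29 UGT, SULT and GST genes with 95% intervals from limma; filled red circles passed an adjusted p under 0.05, open grey diamonds did not, and dotted lines mark a 2-fold change. GSTA1 and GSTA2 lie near 4, UGT2B15 at 2.03, and the only filled point left of 0 is GSTO1 at -0.10.

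The alpha class of GST genes rose most. GSTA1 and GSTA2 encode the main alpha-class enzymes of the hepatocyte cytosol, which also reduce lipid hydroperoxides. GSTA1 had 2, 7 and 6 reads with DMSO and 70, 77 and 81 with fostamatinib. GSTA2 went from 10, 7 and 10 reads to 125, 132 and 129. For both genes every fostamatinib sample was far above every DMSO sample. The log2 fold change was 4.03 (SE 0.32, adjusted p = 7.21e-13 by limma) for GSTA1, a 16.4-fold rise, and 3.87 (SE 0.22, adjusted p = 1.07e-16) for GSTA2, a 14.6-fold rise. They were ranked 10 and 11 of all 16305 genes by log2 fold change. The few DMSO reads make the size uncertain: the log2 fold change of GSTA1 was 3.65 with an offset of 2 reads in place of 0.5, and 3.58 to 4.30 when 1 sample was left out. GSTA4, whose enzyme conjugates the lipid aldehyde 4-hydroxynonenal, was already well expressed, with 218, 212 and 192 reads under DMSO and 385, 406 and 403 under fostamatinib. Its groups did not overlap, and it rose by 1.03 on the log2 scale (SE 0.09, adjusted p = 1.74e-12).

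The 3 alpha genes lie on the minus strand of chromosome 6 (GRCh37: GSTA2 at chr6:52614885-52628273, GSTA1 at chr6:52656169-52668658, GSTA4 at chr6:52842746-52860102). GSTA1 and GSTA2 are near copies, and 23.2% of the 50-base exon windows of GSTA1 also occur in other genes, mostly GSTA2, so reads can be assigned to the wrong copy. GSTA4 shares 0% of its windows. The log2 ratio of GSTA2 to GSTA1 reads within a sample was 0.92 ± 1.05 (SD, n = 3) with DMSO and 0.76 ± 0.08 (SD, n = 3) with fostamatinib, so both genes moved by a similar factor within a wide error. The likeness extends to the 250 bases before their start sites, which differ at 7 positions (97.2% identity), whereas GSTA1 and GSTA4 share 47.0% over their alignment. These stretches are shown because the 2 genes that rose most have nearly the same promoter letters. They are RefSeq sequences of build GRCh38.p14, written 5' to 3' along the minus strand, chr6:52803817-52804066 for GSTA1 and chr6:52763476-52763725 for GSTA2, with capitals at the bases that differ between them.
GSTA1: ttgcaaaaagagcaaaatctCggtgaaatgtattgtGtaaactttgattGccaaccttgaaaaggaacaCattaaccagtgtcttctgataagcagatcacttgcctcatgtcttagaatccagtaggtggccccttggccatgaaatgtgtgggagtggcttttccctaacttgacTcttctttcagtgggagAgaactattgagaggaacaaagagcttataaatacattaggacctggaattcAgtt
GSTA2: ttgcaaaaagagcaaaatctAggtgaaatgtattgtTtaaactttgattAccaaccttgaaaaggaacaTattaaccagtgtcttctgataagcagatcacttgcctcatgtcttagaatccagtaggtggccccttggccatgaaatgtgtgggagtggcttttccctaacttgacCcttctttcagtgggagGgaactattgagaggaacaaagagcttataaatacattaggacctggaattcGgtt

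In the UGT2B family all 4 genes analysed rose, with a median log2 fold change of 1.20. Over all genes, 23.3% rose and 24.5% fell. UGT2B15, which conjugates androgens and several drugs, had 27, 21 and 37 reads with DMSO and 93, 129 and 104 with fostamatinib. The groups were well apart, and the log2 fold change was 2.03 (SE 0.19, adjusted p = 5.85e-11 by limma), a 4.09-fold rise. UGT2B4, which conjugates bile acids among other substrates, had 62, 86 and 105 reads with DMSO and 181, 240 and 196 with fostamatinib. Every fostamatinib sample was above every DMSO sample, with a log2 fold change of 1.39 (SE 0.13, adjusted p = 7.68e-11). UGT2B7, the main enzyme for morphine glucuronidation, went from 20, 27 and 33 reads to 48, 56 and 40. Its groups did not overlap either, and the log2 fold change was 0.94 (SE 0.22, adjusted p = 5.45e-04). UGT2B11, whose substrates are less well known, had 9, 11 and 24 reads with DMSO and 34, 31 and 16 with fostamatinib. Here the groups overlapped, since DMSO sample 3 was above fostamatinib sample 3. Its log2 fold change was 1.0 (SE 0.33, adjusted p = 0.0123), and leaving out 1 sample moved the adjusted p between 0.0013 and 0.0923, with the call lost without DMSO sample 1, DMSO sample 2, fostamatinib sample 1 or fostamatinib sample 2.

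The rise was not equal within the family. The log2 ratio of UGT2B15 to UGT2B7 reads was 0.42, -0.36 and 0.16 with DMSO and 0.95, 1.20 and 1.37 with fostamatinib, a difference of 1.09 (SE 0.26). UGT2B15 relative to UGT2B4 differed by 0.64 (SE 0.24) and UGT2B4 relative to UGT2B7 by 0.45 (SE 0.11), with groups that did not overlap. These pairs, like the other ratios given here, were chosen with the fold changes known and serve as description. An exact permutation test of 3 against 3 cannot go below p = 0.10.

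The UGT2 genes stand in a row on chromosome 4 (GRCh37), from UGT2B15 at chr4:69512315-69536370 through UGT2A3, UGT2B7 and UGT2B11 to UGT2B4 at chr4:70345883-70391732 and UGT2A1 at chr4:70454135-70518967. UGT2B15 shares 27.1% of its 50-base windows with other genes, chiefly UGT2B17, and UGT2B11 shares 36.1%, while UGT2B4 (3.2%) and UGT2B7 (5.4%) are largely distinct. The 250 bases before the start sites of UGT2B15, UGT2B7 and UGT2B11 are shown to compare the promoters of neighbours that were all called higher. Over their alignments UGT2B15 and UGT2B11 were 71.3% identical, UGT2B7 and UGT2B11 63.0%, and UGT2B15 and UGT2B7 58.4%. UGT2A3, a neighbour that was also called higher, was 47.2% identical to UGT2B15. UGT2B4 has no entry in the RefSeq promoter table. Capitals mark the longest run of bases that the 3 sequences have in common. It spans 12 bases and begins 182 bases before the start of UGT2B15, 175 before that of UGT2B7 and 181 before that of UGT2B11. The sequences are from RefSeq, build GRCh38.p14, written 5' to 3' along the strand of the gene, chr4:68670653-68670902 (minus strand), chr4:69096224-69096473 (plus strand) and chr4:69214749-69214998 (minus strand).
UGT2B15: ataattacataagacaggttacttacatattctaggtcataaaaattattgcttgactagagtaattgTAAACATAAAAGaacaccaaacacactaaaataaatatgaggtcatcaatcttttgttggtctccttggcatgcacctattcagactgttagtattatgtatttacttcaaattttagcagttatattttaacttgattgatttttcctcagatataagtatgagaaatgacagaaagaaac
UGT2B7: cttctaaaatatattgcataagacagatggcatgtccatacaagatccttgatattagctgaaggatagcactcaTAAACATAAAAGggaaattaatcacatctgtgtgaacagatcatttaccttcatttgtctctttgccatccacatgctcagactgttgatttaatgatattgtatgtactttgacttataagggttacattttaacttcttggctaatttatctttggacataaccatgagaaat
UGT2B11: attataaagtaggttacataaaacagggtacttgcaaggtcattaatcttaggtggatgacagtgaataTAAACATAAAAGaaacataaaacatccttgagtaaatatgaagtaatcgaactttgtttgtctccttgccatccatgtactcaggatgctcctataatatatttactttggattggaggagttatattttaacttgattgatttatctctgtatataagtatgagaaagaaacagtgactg

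Among the other UGT genes, UGT2A3 rose from 93, 109 and 148 reads to 177, 227 and 191, with no overlap of the groups and a log2 fold change of 0.87 (SE 0.12, adjusted p = 3.51e-07 by limma). UGT2A3 is a glucuronosyltransferase of liver and intestine. UGT1A6, which conjugates small planar phenols, had 36, 22 and 28 reads with DMSO and 44, 45 and 45 with fostamatinib. All 3 fostamatinib samples were higher, with a log2 fold change of 0.75 (SE 0.23, adjusted p = 0.00602), but without DMSO sample 2 the adjusted p was 0.0556. UGT1A1, the bilirubin-conjugating enzyme, had 75, 97 and 90 reads with DMSO and 99, 90 and 92 with fostamatinib. The groups overlapped, and its log2 fold change of 0.20 did not pass (SE 0.14, 95% interval -0.08 to 0.47, adjusted p = 0.248). UGT2A1, known from the olfactory epithelium, had 2 to 7 reads in the 6 samples and a log2 fold change of 0.68 with a 95% interval from -0.55 to 1.91, so at this depth no difference was detectable. Genes of the UGT1A locus on chromosome 2 share their last exons: 50.1% of the exon bases of UGT1A1 (chr2:234668916-234681946) and 44.2% of those of UGT1A6 (chr2:234600253-234681946) overlap other coding genes, and 62.6% of those of UGT2A1 overlap UGT2A2. How reads on these shared exons were counted is not given in the sources used here. UGT1A9, an enzyme that conjugates the active metabolite of fostamatinib, was not analysed here.

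**Figure D2:**
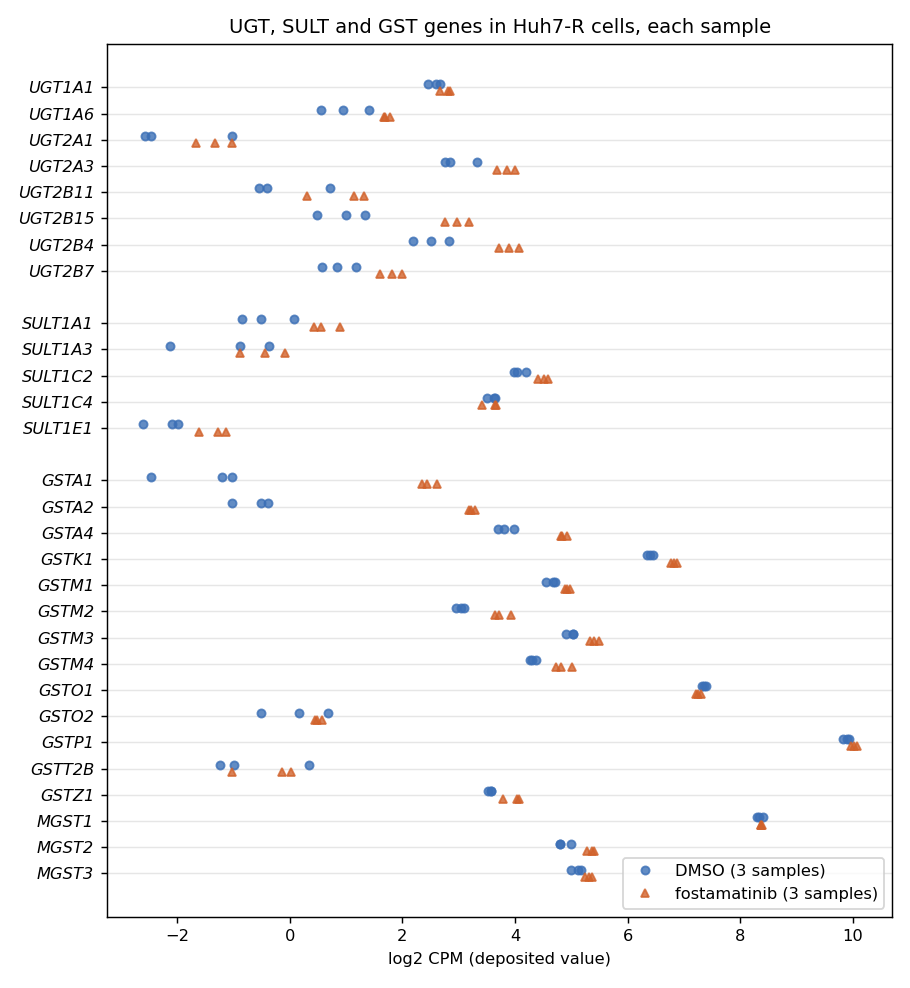
Deposited log2 CPM (x axis) of each UGT, SULT and GST gene in the 3 DMSO samples (blue circles) and the 3 fostamatinib samples (orange triangles). GSTA1 and GSTA2 move from below 0 to above 2, UGT2B11 shows overlapping groups, and GSTP1 is the gene with the most reads in both groups.

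Of the sulfotransferases, SULT1A1 and SULT1C2 rose and 3 genes did not pass. SULT1A1, the main phenol sulfotransferase of adult liver, had 14, 8 and 10 reads with DMSO and 18, 26 and 19 with fostamatinib. The groups did not overlap, and the log2 fold change was 1.05 (SE 0.33, adjusted p = 0.00893 by limma), with an adjusted p of 0.0582 when fostamatinib sample 2 was left out. SULT1A1 shares 26.4% of its windows with other genes. SULT1C2, a sulfotransferase best known from fetal tissues, had 252, 241 and 244 reads with DMSO and 292, 326 and 317 with fostamatinib. Each fostamatinib sample was above each DMSO sample (log2 fold change 0.43, SE 0.08, adjusted p = 6.29e-05). SULT1C4, its neighbour on chromosome 2 and likewise a fetal form, had 170, 190 and 169 reads with DMSO and 147, 178 and 168 with fostamatinib. Its groups overlapped, and the log2 fold change was -0.02 (SE 0.10, 95% interval -0.23 to 0.20, adjusted p = 0.921). The log2 ratio of SULT1C2 to SULT1C4 was 0.57, 0.34 and 0.53 with DMSO and 0.99, 0.87 and 0.91 with fostamatinib, so the neighbours did not keep their proportion. SULT1E1, the oestrogen sulfotransferase, had 3, 2 and 3 reads with DMSO and 4, 6 and 5 with fostamatinib. The samples were apart but too thinly covered for a call (log2 fold change 0.89, 95% interval -0.34 to 2.11, adjusted p = 0.236). SULT1A3, which sulfates dopamine and other catecholamines, had 3 to 12 reads, a log2 fold change of 0.66 with a 95% interval from -0.30 to 1.61, and 80.5% of its windows in other genes, so its counts are uncertain.

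The 4 mu-class genes analysed all rose, while 23.3% of all genes rose and 24.5% fell. These 4 genes rose by less than 2-fold, with a median log2 fold change of 0.48. GSTM1 had the highest level per length of them, with 323, 397 and 380 reads under DMSO and 431, 422 and 403 under fostamatinib. All fostamatinib samples were higher (log2 fold change 0.28, SE 0.07, adjusted p = 0.00119 by limma). GSTM2 rose by 0.74 (SE 0.11), GSTM4 by 0.54 (SE 0.08) and GSTM3 by 0.42 (SE 0.07) on the log2 scale, each with groups that did not overlap. The mu genes stand together on chromosome 1 (GRCh37, chr1:110198721-110283660), and 49.7% of the windows of GSTM1 occur in other genes, mainly GSTM2 and GSTM4. The log2 ratio of GSTM2 to GSTM1 was -1.60, -1.66 and -1.59 with DMSO and -1.04, -1.17 and -1.28 with fostamatinib, which is a difference of 0.46 (SE 0.07).

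GSTK1, the GST of mitochondria and peroxisomes, had 1200, 1283 and 1212 reads with DMSO and 1501, 1609 and 1552 with fostamatinib, and rose by 0.42 on the log2 scale (SE 0.05, adjusted p = 3.18e-09 by limma). GSTZ1, which acts in tyrosine breakdown as maleylacetoacetate isomerase, rose by 0.40 (SE 0.10, adjusted p = 9.03e-04). GSTP1 had 13106, 14934 and 13422 reads with DMSO and 14757, 14851 and 13197 with fostamatinib. After scaling for library size its groups were just apart, and the log2 fold change was 0.14 (SE 0.04, adjusted p = 0.00167), a 1.10-fold rise. GSTO1, an omega-class enzyme that reduces dehydroascorbate, was the only member that fell, from 2201, 2511 and 2501 reads to 2162, 2181 and 1965. Scaled for library size, all 3 fostamatinib samples were below the DMSO samples, but the log2 fold change was only -0.10 (SE 0.04, adjusted p = 0.0437), and the call was lost without DMSO sample 2, DMSO sample 3, fostamatinib sample 2 or fostamatinib sample 3, with adjusted p-values up to 0.182. Its neighbour GSTO2 had 10 to 24 reads and did not pass (log2 fold change 0.39, 95% interval -0.26 to 1.03). GSTT2B, the theta-class member analysed, had 17, 6 and 7 reads with DMSO and 12, 14 and 6 with fostamatinib. The groups overlapped fully (log2 fold change 0.24, SE 0.44, 95% interval -0.64 to 1.13, adjusted p = 0.676), and 88.0% of its windows are those of GSTT2.

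The microsomal GST genes encode membrane proteins of another protein family. MGST1, which protects membranes from lipid peroxidation, had 4306, 4899 and 5017 reads with DMSO and 4558, 4691 and 4451 with fostamatinib. The groups overlapped, and its log2 fold change of 0.04 did not pass (SE 0.04, 95% interval -0.04 to 0.11, adjusted p = 0.434 by limma). MGST2, which can make leukotriene C4, had 381, 487 and 411 reads with DMSO and 583, 586 and 513 with fostamatinib. Every fostamatinib sample was higher (log2 fold change 0.49, SE 0.07, adjusted p = 3.04e-07), and its 95% interval of 0.35 to 0.63 does not meet that of MGST1. MGST3, with 478, 552 and 471 reads against 545, 538 and 547, rose by 0.21 (SE 0.07, adjusted p = 0.00848), and its adjusted p was 0.0591 without fostamatinib sample 3.

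Levels of different genes were compared as RPKM, the reads per length of merged exons (in kilobases) and per library size. GSTP1 had the highest level of all members in both groups, 535 ± 21.6 RPKM with DMSO and 588 ± 21.9 with fostamatinib (SD, n = 3). GSTO1 (97.1 and 90.4 RPKM) and MGST1 (43.5 and 44.6) came next, but per canonical transcript MGST1 (350 and 359 RPKM) was above GSTO1 (202 and 188). Per merged exons GSTP1 made up 72.3% of the summed GST level with DMSO and 71.3% with fostamatinib. This share depends on the length used. With DMSO, GSTP1 had 562 of a GST sum of 975 RPKM per longest transcript, and 1270 of 2050 per canonical transcript. The sum of the 16 GST genes thus hardly followed the alpha genes. Per merged exons the sum was 740 ± 20.9 RPKM with DMSO and 824 ± 22.9 with fostamatinib, a ratio of 1.11. Within the GST genes, the alpha class went from 7.54 ± 0.63 to 25.8 ± 1.30 RPKM, a ratio of 3.43. That ratio was 3.2 per longest transcript and 2.91 per canonical transcript. GSTA2 moved from rank 21 among the 29 members (0.507 RPKM) to rank 9 (7.67 RPKM), and GSTA1 from rank 24 (0.266 RPKM) to rank 14 (4.39 RPKM). Per canonical transcript the ranks were 22 and 14 for GSTA2 and 26 and 17 for GSTA1. With fostamatinib GSTA4 (13.8 RPKM) was still the highest of the 3.

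The summed level of the 8 UGT genes was 7.61, 8.15 and 10.7 RPKM with DMSO and 17.6, 20.9 and 18.5 with fostamatinib. The groups were apart, with a ratio of means of 2.16. UGT2A3 and UGT2B4 had the highest levels, with 29.2% and 26.0% of the sum under DMSO and 24.6% and 31.5% under fostamatinib. Their order with DMSO depends on the length used, since per longest or canonical transcript UGT2B4 (2.73 RPKM) was already level with UGT2A3 (2.67 RPKM) within the spread. The share of UGT2B15 went from 10.3% ± 2.15 to 19.4% ± 1.18 and that of UGT1A1 from 15.5% ± 2.45 to 8.15% ± 1.25 (SD, n = 3), although the reads of UGT1A1 itself did not differ by the test. The log2 ratio of UGT2B4 to UGT2A3 reads lay between -0.58 and -0.34 with DMSO and between 0.03 and 0.08 with fostamatinib, so UGT2B4 drew level with UGT2A3 in reads. For the 5 SULT genes the sum was 5.82, 5.33 and 5.39 RPKM with DMSO and 5.81, 6.68 and 6.86 with fostamatinib, so the groups overlapped by 1 pair of nearly equal samples. Per canonical transcript they did not overlap, with 11.1 to 12.7 RPKM against 13.5 to 15.7. SULT1C4 held 57.1% of the SULT sum with DMSO and 48.3% with fostamatinib. The order of SULT1C4 and SULT1C2 depends on the length used: per canonical transcript SULT1C2 (6.63 RPKM) was above SULT1C4 (4.23 RPKM) with DMSO. The highest rank of GSTP1 was the same with all 3 lengths.

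**Figure D3:**
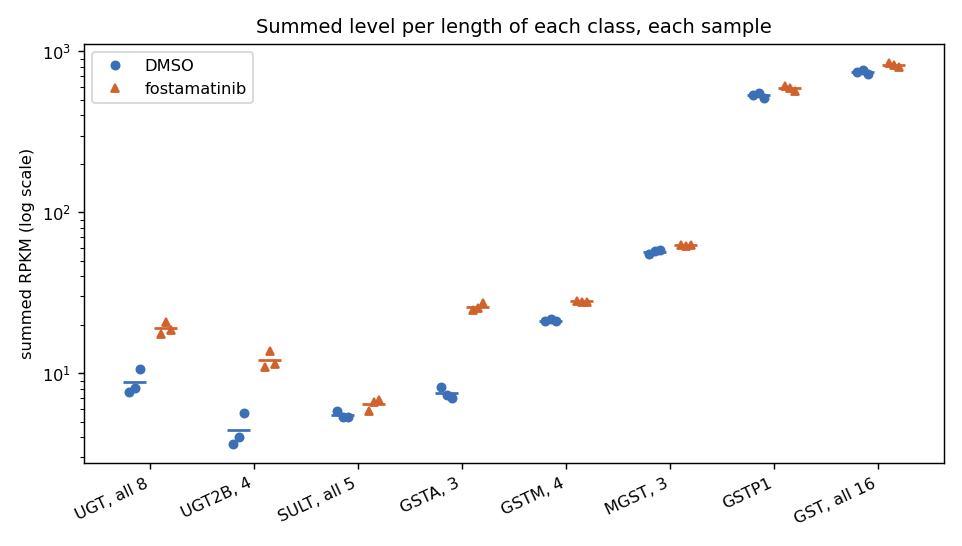
Summed RPKM (log axis) of each class in each sample, with blue circles for DMSO, orange triangles for fostamatinib and a line at each group's mean of 3 samples. The UGT, UGT2B and GSTA sums lie clearly higher with fostamatinib (ratios 2.16, 2.72 and 3.43), while the sum of all GST genes, dominated by GSTP1, changes by 1.11.

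Of the 21 members with at least 10 reads in every sample, 16 rose, 1 fell and 4 did not pass, and 3 rose at least 2-fold (GSTA4, UGT2B15 and UGT2B4). Of the 17 members with at most 20% of their windows in other genes, 13 rose and 1 fell, and 2 rose at least 2-fold. Of the 12 above that share, 7 rose and 0 fell, and 5 rose at least 2-fold. Over all genes, without these limits, 23.3% rose (3.85% at least 2-fold) and 24.5% fell. The shares among all genes under the same limits were not computed. SULT1E1 and UGT2A1 passed the filter on low reads only through the fostamatinib group, and neither was called. Both are included in the medians, although their higher values with fostamatinib were partly set by that filter.

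Conjugation also needs its cosubstrates and export pumps. For comparison with the lists below, 23.3% of all genes rose and 24.5% fell, and no list was tested as a set. Of the 5 genes for UDP-glucuronate supply, 3 rose and 1 fell (median log2 fold change 0.40). UGDH, the dehydrogenase that makes UDP-glucuronate, was 0.48 higher on the log2 scale (SE 0.04, adjusted p = 2.15e-12 by limma). Of 10 genes for PAPS supply and recycling, 7 rose and 1 fell (median 0.30), and SLC26A1, a sulfate transporter, changed most (log2 fold change 1.22, SE 0.09). Of 7 conjugate efflux pumps, 3 rose and 2 fell (median 0.63). ABCC6 changed most, by 1.16 (SE 0.06), and ABCC2, the canalicular pump for glutathione and glucuronide conjugates, rose by 0.86 (SE 0.06). Genes of glutathione synthesis and turnover went mostly the other way: 7 of 19 rose and 11 fell (median -0.38). This list joins synthesis with breakdown genes, so its median does not measure the supply of glutathione. The largest falls were those of CHAC1, a glutathione-degrading enzyme (-4.28, SE 0.14), SLC7A11, the cystine importer (-1.76, SE 0.07), and CTH, which makes cysteine from cystathionine (-1.69, SE 0.10). GCLC, the catalytic subunit of the first enzyme of glutathione synthesis, rose by 0.34 (SE 0.04), whereas GCLM, the modifier subunit of the same enzyme, fell by 0.42 (SE 0.06, adjusted p = 1.36e-06 by limma). UGDH, ABCC2, GCLC and GCLM are named for their roles and were chosen after their values were seen.

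Of 10 hydrolases that split sulfates and glucuronides, 5 rose and 2 fell (median 0.18). Of 10 enzymes of other conjugations, 3 rose and 1 fell (median 0.37). Among all genes, 23.3% rose and 24.5% fell (47.8% in either direction). NNMT, the nicotinamide N-methyltransferase, fell by 3.89 on the log2 scale (SE 0.09), and BAAT, which joins bile acids to glycine or taurine, rose by 1.73 (SE 0.23). Of 8 relatives of the GST and microsomal GST proteins outside the named classes, 2 rose and 4 fell (median -0.19). The largest change there was in PTGES, a prostaglandin E synthase related to MGST1, with a log2 fold change of 1.93 (SE 0.11).

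**Figure D4:**
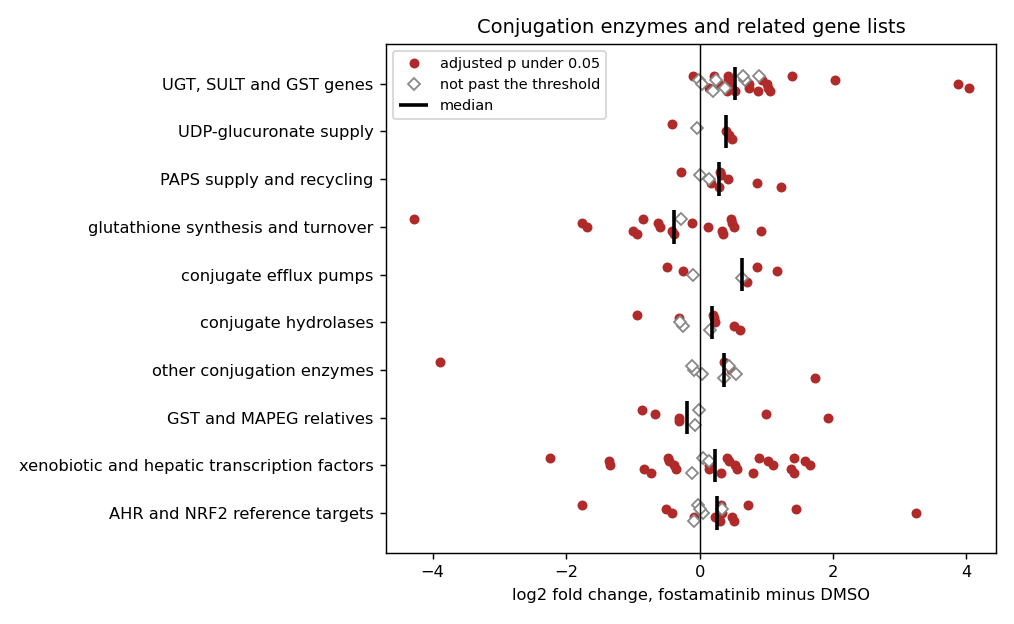
Log2 fold change (fostamatinib minus DMSO, x axis) of each gene of the UGT, SULT and GST group and of 9 related gene lists; red circles passed an adjusted p under 0.05, grey diamonds did not, and black bars are list medians. The median is 0.54 for the conjugation enzymes and -0.38 for glutathione synthesis and turnover, where CHAC1 lies farthest left at -4.28.

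Several transcription factors are known to act on these genes, among them AHR with its partner ARNT on UGT1A6, NRF2 (gene NFE2L2) on GST genes, and HNF4A on hepatic genes. Of 28 xenobiotic and hepatic factors, 16 rose, 9 fell and 3 did not pass (median 0.24), while 23.3% of all genes rose and 24.5% fell. AHR itself fell by 0.46 (SE 0.06) and ARNT rose by 0.33 (SE 0.05). NFE2L2 did not pass, with a log2 fold change of 0.05 (SE 0.04, adjusted p = 0.227 by limma). HNF4A rose by 1.02 (SE 0.04). The largest changes on the list were those of RORA (-2.24, SE 0.27), CDX2 (1.65, SE 0.13), CEBPA (1.58, SE 0.08) and NR0B2 (1.42, SE 0.43). NR1I2 and NR1I3, the xenobiotic receptors PXR and CAR, were not analysed here. Of 18 reference targets of AHR or NRF2, 9 rose and 4 fell (median 0.27). CYP1A1, the classical AHR target, had a log2 fold change of 3.24 (SE 0.05), AKR1C1 of 1.45 (SE 0.03) and SLC7A11 of -1.76 (SE 0.07). Elsewhere on this list CYP1B1 rose by 0.23 (SE 0.04) and TIPARP by 0.33 (SE 0.04), while HMOX1 (0.05) and TXNRD1 (-0.02) did not pass. CYP1B1, TIPARP, HMOX1 and TXNRD1 were named after their values were seen.

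The letters of the AHR core motif, GCGTG on either strand, were found in the 250 bases before the start of 5 of the 25 members with a RefSeq promoter entry (GSTM3, GSTM4, GSTZ1, MGST3 and UGT1A6), and in 32.2% of all promoters. The antioxidant response letters TGACNNNGC were found in 6 of 25 members (GSTA4, GSTM1, GSTO1, GSTP1, SULT1C2 and UGT2B11) and in 10.9% of all promoters. Neither set of letters was found in that window of GSTA1, GSTA2 or UGT2B15. A match is a description of letters and not of binding.

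Markers of the labelled cell type were present, with mean log2 CPM values of 10.9 for AFP and 9.32 for ALB in the DMSO samples. Of 17 hepatocyte markers analysed, 16 rose and 0 fell, against 23.3% and 24.5% of all genes. Their summed level was 6410 to 6880 CPM in the DMSO samples and 9690 to 10300 CPM in the fostamatinib samples. HNF4A is counted both here and among the transcription factors. ASGR1 did not pass. Of 6 biliary markers, 2 rose and 2 fell (sums of 298 to 314 and 334 to 343 CPM). Of 5 fibroblast and stellate markers, 2 rose and 1 fell (297 to 306 and 308 to 312 CPM, mostly from COL1A2 and LUM). The endothelial marker PECAM1 rose, at sums of only 6.13 to 6.96 and 8.76 to 9.93 CPM, while of 2 blood cell markers (LYZ and CD14) 0 passed. The defining markers PTPRC, CD3E, VWF, CDH5, DCN and ACTA2 were not analysed here. The part of the hepatocyte markers' rise in the changes of the conjugation genes was not tested. The samples held 13303451 to 15272737 reads on the genes analysed, and the chi-square per degree of freedom between samples was 1.65 to 3.74 within groups and 39.8 to 44.5 across groups, where 1 is counting error alone.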

How the data were processed

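RNA-seq was made from 3 DMSO and 3 fostamatinib samples of Huh7-R cells, and groups and replicate numbers were taken from the sample titles. The reads were mapped by the authors to hg19 with HISAT and counted with featureCounts on a GENCODE annotation, and genes below 5 reads in at least 2 of 3 samples in each group were removed. Whether the counting used the strand of the directional libraries, the read length and the handling of reads that match several genes are not given in the sources used here. The deposited values are log2 CPM, made by the authors from read counts with 0.5 added and library sizes scaled with TMM. Reads were recovered from them, and 100% of the values lay within 0.05 of a whole number. One gene listed 7 times with the same identifier was used once. The depth was 13303451 to 15272737 reads per sample, and members with few reads carry large errors.

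Groups were compared on the deposited log2 CPM with limma 3.58.1 (R 4.3.3, lmFit and eBayes with a trend, 2-sided, no covariates), with Benjamini-Hochberg adjustment over 16305 genes and a threshold of 0.05. The trended fit draws on all genes for the spread, with a median of 33.9 degrees of freedom against 4 from the samples alone. The fit was tested on simulated counts with a fixed spread, in which only genes above a minimum of expected reads were changed. That test does not cover members with few reads. Further steps used Python 3.11.15 with pandas 2.3.3, numpy 2.4.6, scipy 1.17.1, matplotlib 3.10.9 and, for promoter alignment, Biopython 1.88. The plan named edgeR only in case the files held raw counts, and it was not used.

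Coordinates, exon lengths and shared 50-base windows are from GRCh37 with GENCODE version 44, which held 98.7% of the gene identifiers. The study names an earlier GENCODE version for its read counts, so the exons counted may differ from these lengths. Promoters are from RefSeq (GRCh38.p14), with entries for 25 of 29 members. The members and gene lists were chosen with earlier results of these data known. By rule, values for each sample were given for members past 2-fold and for the member with the highest level per length in UGT1A, UGT2B, SULT1, GSTA, GSTM, GSTT, GSTO and MGST. Values for each sample of some other members were added after they had been seen, and the rest are given in shorter form. Of each related list, up to 4 called genes past 2-fold were named, and the factors AHR, ARNT, NFE2L2 and HNF4A. Another gene that meets this rule is not reported here. The alternatives were eBayes without a trend, limma-voom on the recovered reads, median-ratio scaling, library size alone, an offset of 2 reads, filters of 10 reads in every sample or of both groups passing, a replicate block, the omission of each sample, a threshold of 1 expected false positive, limma's treat against 2-fold, and other gene lengths. The canonical transcript length was added after seeing the data.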

Additional observations from a re-analysis of the deposited data

How the results depend on the processing

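Where the p threshold allowed 1 false positive in expectation, 12 members were called, 12 higher and 0 lower, with 3 UGT, 1 SULT and 8 GST genes and 2 of the hydrolases. With at least 10 reads in every sample, 1 of 2 SULT genes was called, and 3 of 21 members passed 2-fold. limma's treat against a 2-fold change called 3 members (GSTA1, GSTA2 and UGT2B15). The shares of all genes called under these alternatives were not computed. Without a trend GSTO1, GSTP1, MGST3 and UGT2B11 lost their calls and SULT1E1 gained one, and with median-ratio scaling GSTO1 lost its call. The cause was not tested for these. No called member changed direction under any alternative run. When 1 sample was left out, the called members numbered 18 to 20, the UGT genes 4 to 6, the SULT genes 1 to 2 (1 without fostamatinib sample 2), the GST genes 11 to 13 and members past 2-fold 5 to 8. The called genes of the lists numbered 4 to 4 for UDP-glucuronate supply, 7 to 8 for PAPS, 17 to 18 for glutathione, 5 to 5 for efflux pumps, 5 to 7 for hydrolases, 4 to 5 for other conjugation, 5 to 6 for relatives, 23 to 25 for transcription factors and 12 to 13 for AHR and NRF2 targets. With other gene lengths or scaling the ratio of summed levels was 2.04 to 2.14 for UGT, 1.16 to 1.26 for SULT and 1.10 for GST genes.

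With the replicate number as a block, 21 members were called and no call on a member changed. Same-numbered samples deviated together only weakly, with correlations of 0.04, -0.02 and 0.04. The labels do not say whether a number marks a shared culture, so the main fit did not treat the samples as paired.

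Depth limits the members with few reads: the standard errors of the log2 fold change were 0.44 for GSTT2B, 0.47 for SULT1A3, 0.60 for SULT1E1 and 0.61 for UGT2A1. Reads of near copies cannot be assigned with certainty.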
